A study of Mus musculus with 19 samples.

Results

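The genes of the respiratory chain and the ATP synthase were followed in 19 mouse neuroblastic tumors. All genes of the count table were taken whose symbols name a subunit of complex I (Ndufa, Ndufb, Ndufc, Ndufs and Ndufv genes), complex II (Sdha to Sdhd), complex III (Uqcr genes and Cyc1), complex IV (Cox4 to Cox8 genes) or the ATP synthase, here complex V (Atp5 genes), together with the protein-coding genes of mitochondrial DNA (prefix mt-). Pseudogenes and assembly factors were left out by their symbols. This gave 103 genes of 35825, of which 90 lie in the nucleus (41 for complex I, 4 for II, 9 for III, 19 for IV and 17 for V) and 13 in mitochondrial DNA (7 for complex I, 1 for III, 3 for IV and 2 for V).

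RNA was sequenced from 11 FGFR1;MYCN tumors of 8 mice and from 8 FGFR1 tumors. All animals carried a FGFR1-N546K transgene in the R26 locus and a Th-IRES Cre allele, both heterozygous (tg/wt in the labels). Th-IRES Cre places Cre recombinase under the promoter of tyrosine hydroxylase, an enzyme of catecholamine-producing cells. The study's main text describes a stop cassette before the transgene that Cre removes. Its supplementary legend names target sites of another recombinase, Flp, and the labels read R26.FSF. The FGFR1;MYCN mice also carried heterozygous Th-MYCN (tg/wt), which drives human MYCN from a Th promoter. The FGFR1;MYCN mice were 18 to 21 days old, 4 of the FGFR1 tumors were taken at 14 days (T4, T15, T19 and T21) and 4 at 6 or 7 days (T11 and T12 at 6, T2 and T3 at 7), so that genotype and age cannot be told apart. Mice 23, 36 and 84 gave a tumor labelled kidney and another labelled pelvis, and the study lists the former as tumors of the adrenal gland.

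Complexes I to IV pass electrons from NADH and succinate to oxygen and, apart from complex II, pump protons across the inner mitochondrial membrane, and the ATP synthase uses the returning protons to make ATP. Mitochondrial DNA encodes catalytic or membrane subunits of complexes I, III, IV and V, and the nucleus encodes the remaining subunits and all of complex II, so that the 2 genomes must be expressed together. Some complex IV subunits exist in a form found in most tissues and in a form restricted to tissues such as heart, skeletal muscle and brown fat.

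Library totals ranged from 40010738 to 75882643 estimated counts. Th and Dbh, enzymes of catecholamine synthesis that mark sympathetic neuroblasts, were present in every tumor, at 7.36 to 9.83 and 6.78 to 9.97 log2 CPM (CPM being counts relative to the library total). Other tissues were present unevenly. The tumor of mouse2149 held 79322 CPM of liver and 66704 CPM of exocrine pancreas markers, T2 held 79255 CPM and T15 30887 CPM of liver markers, and T15 held 14069 CPM of skeletal muscle markers. Fibroblast markers summed to 460 to 1854 CPM in the FGFR1;MYCN tumors and 4881 to 13584 CPM in the FGFR1 tumors. The part of these tissues in the results below was not tested, and leaving a tumor out does not test it. In bulk RNA, fewer cells of a type and less RNA per cell cannot be told apart. Tumors of the same mouse deviated together from their site means (r of 0.22 to 0.34), so that p-values over tumors treat them as more independent than they were. With counts summed per mouse the genotype comparison called 17 chain genes, as it did over tumors. It then called 4248 of all 18300 genes lower and 3793 higher.

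The 13 mt- genes held more counts than the 90 nuclear genes in all 19 tumors. They took 6.05% (mouse17) to 11.1% (mouse36, kidney) of all counts in the FGFR1;MYCN tumors, with a median of 7.64%. In the FGFR1 tumors at 14 days their share was 5.85% in T4, 9.74% in T21, 14.3% in T19 and 20.9% in T15, and at 6 or 7 days it was 3.12% in T2, 5.64% in T12, 9.13% in T3 and 9.79% in T11. The mean was 8.17% ± 1.55 (SD, n = 11) in FGFR1;MYCN tumors, 12.7% ± 6.45 (n = 4) at 14 days and 6.92% ± 3.12 (n = 4) at 6 or 7 days, and the ranges overlapped. The share varied 1.84-fold among FGFR1;MYCN tumors and 6.68-fold among FGFR1 tumors.

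The nuclear genes took 0.939% (mouse84, pelvis) to 1.90% (mouse23, pelvis) of counts in the FGFR1;MYCN tumors, with a median of 1.10%. At 14 days the share was 1.45% in T4, 1.66% in T19, 2.21% in T21 and 2.30% in T15. At 6 or 7 days it was 0.831% in T12, 1.11% in T2, 1.2% in T11 and 1.25% in T3. All 4 tumors at 14 days lay above all 4 tumors at 6 or 7 days, whereas the mouse23 pelvis tumor lay among the former. There were 2.82 (T2) to 10.1 (mouse2149) mt- counts for each nuclear count.

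**Figure D1:**
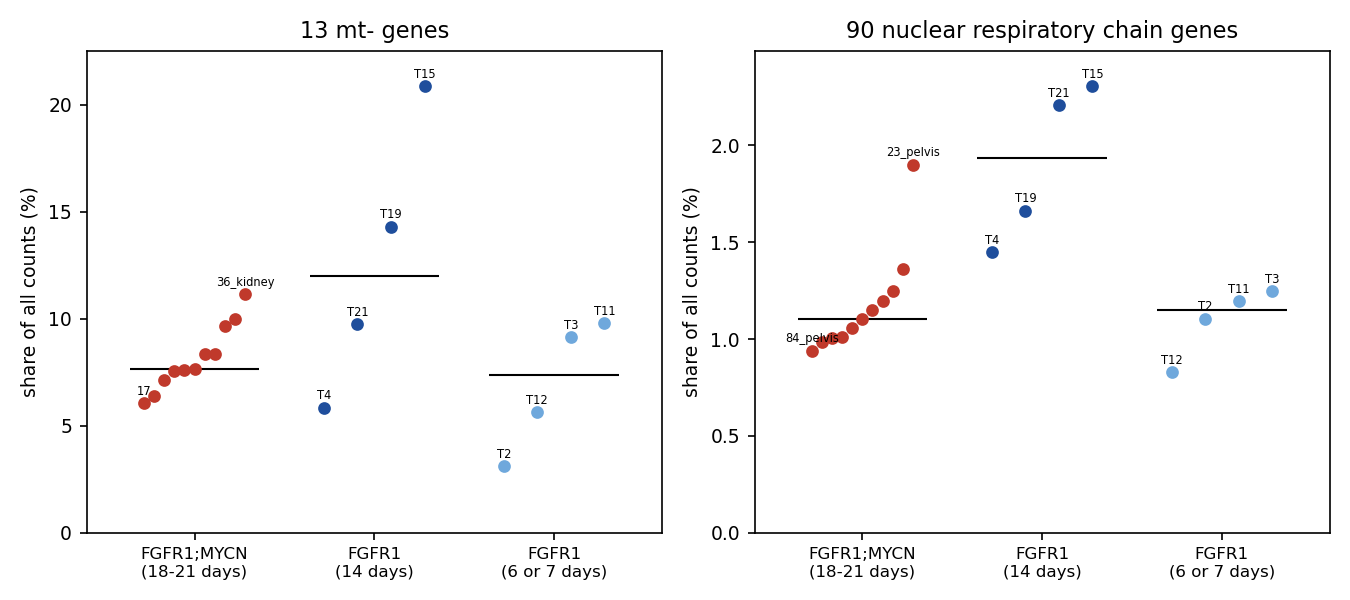
Percent of a tumor's counts in the 13 mt- genes and in the 90 nuclear genes (y axes, percent) for each tumor, by genotype and age (x axis), with horizontal bars for group medians. The nuclear share of the FGFR1 tumors was 0.831 to 1.25% at 6 or 7 days and 1.45 to 2.30% at 14 days, and the mt- share reached 20.9% in T15.

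Per kilobase of transcript, each mt- gene had a higher median level over the 19 tumors than any nuclear gene. The levels ran from 978 CPM per kb for mt-Nd3, a membrane subunit of complex I, to 14816 CPM per kb for mt-Co2, which receives electrons from cytochrome c in complex IV. Among the 79 nuclear genes tested that are not tissue-restricted forms, Atp5b, the catalytic beta subunit of the ATP synthase, was highest at 632 CPM per kb and Ndufb2 of complex I lowest at 16.2. Each length was that of the gene's coding transcript of median length, which was 4371 bases for Ndufb2. By counts Ndufb2 was not lowest, with 85851 over all tumors against 12939 for Atp5s. The median nuclear gene stood at 97.5 CPM per kb for complex I, 125 for II, 212 for III, 262 for IV and 265 for V, against 5108 for the mt- genes. These orders describe medians over tumors, depend on the transcript chosen for each gene and were not tested.

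Within the mitochondrial transcripts, mt-Co1, the catalytic subunit of complex IV, held the largest median share of mt- counts at 26.6% (20.8% to 32.2% over tumors). It was followed by mt-Co3, a core subunit of complex IV, at 12.8%, mt-Co2 at 12.2% and mt-Atp6, the proton channel subunit of the ATP synthase, at 11.0%. mt-Cytb, the cytochrome b of complex III, held 9.70% and the complex I subunits mt-Nd1, mt-Nd4, mt-Nd5 and mt-Nd2 held 7.91%, 7.50%, 4.28% and 3.42%. mt-Nd6, which lies alone on the opposite strand (chrM:13552-14070, GRCm38), held 1.64%, mt-Nd4l 1.29%, mt-Atp8 1.18% and mt-Nd3 0.387%. The share of mt-Co3 varied most widely in percentage points, from 6.40% in mouse2149 to 21.9% in the mouse23 pelvis tumor.

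Some of these values depend on how reads were divided between near-identical copies. Gm28438, a nuclear gene nearly identical to mt-Nd3, held 35.0% to 76.1% of the counts of that pair, so that the level of mt-Nd3 is uncertain. Copies held up to 40.5% of the counts of mt-Co3, 28.1% of mt-Atp6 and 26.1% of mt-Co2 in single tumors. mt-Atp8 overlaps mt-Atp6, and mt-Nd4l overlaps mt-Nd4, on the same strand. Among nuclear genes, Gm10175 and Gm10231 held 83.7% to 92.6% of counts shared with Atp5g2, a membrane ring subunit of the ATP synthase.

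The levels of the nuclear and the mt- genes moved together only loosely from tumor to tumor. Levels are log2 CPM from here on. The mean over the 13 mt- genes and the mean over the 85 nuclear genes that passed the count filter had a Pearson r of 0.52 and a Spearman rho of 0.45 over 19 tumors. The r was 0.37 (rho 0.40) over the 11 FGFR1;MYCN tumors and 0.65 (rho 0.62) over the 8 FGFR1 tumors. It was 0.24 (rho 0.31) without T15 and the tumor of mouse2149, which lay farthest from the median mt- level, so that it was weaker without that pair, and 0.54 without mouse2149 alone. Within FGFR1;MYCN tumors r was 0.05 without mouse2149 and 0.50 (rho 0.58) without mouse2149 and the mouse23 pelvis tumor. These correlations are a description, since all points share library totals and normalization factors and 3 mice gave a pair of tumors.

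Single tumors stood out in different ways. The tumor of mouse2149 had a mean mt- level of 13.14 against a median of 11.67 in its group. Its nuclear mean was 6.80 against 6.31. By share of counts, its mt- genes held 9.99% against a median of 7.64%, but its nuclear genes held 0.987% against 1.10%. Its nuclear genes thus lay above the median by level and below it by share, and only the levels carry normalization factors. T15 had the highest level of both kinds (13.43 and 7.84). The mouse23 pelvis tumor had the highest nuclear mean of its group, 7.20, with a mt- mean of 11.50. T2 had the lowest mt- mean of all, 10.76, with a nuclear mean of 6.69.

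Genes of the same genome were closer to each other than to the other genome. The median pairwise r was 0.85 over 3081 pairs of the 79 tested nuclear genes that are not tissue-restricted forms, 0.83 over 78 pairs of mt- genes and 0.46 over 1027 mixed pairs. For comparison, the median r with the mean mt- level was 0.04 over all genes tested and 0.49 over the nuclear members. The nuclear genes that followed the mean mt- level most closely were Ndufb5 (r = 0.72), Ndufs1 (0.70), which carries iron-sulfur clusters in complex I, and Cox7b (0.68). Those that followed it least were Cox6b2 (r = −0.06), Atp5g2 (−0.01) and Cox4i2 (−0.01). Within the genotypes their r had opposite signs. In FGFR1;MYCN and FGFR1 tumors it was −0.67 and 0.32 for Cox6b2, −0.29 and 0.14 for Atp5g2, and −0.56 and 0.48 for Cox4i2.

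**Figure D2:**
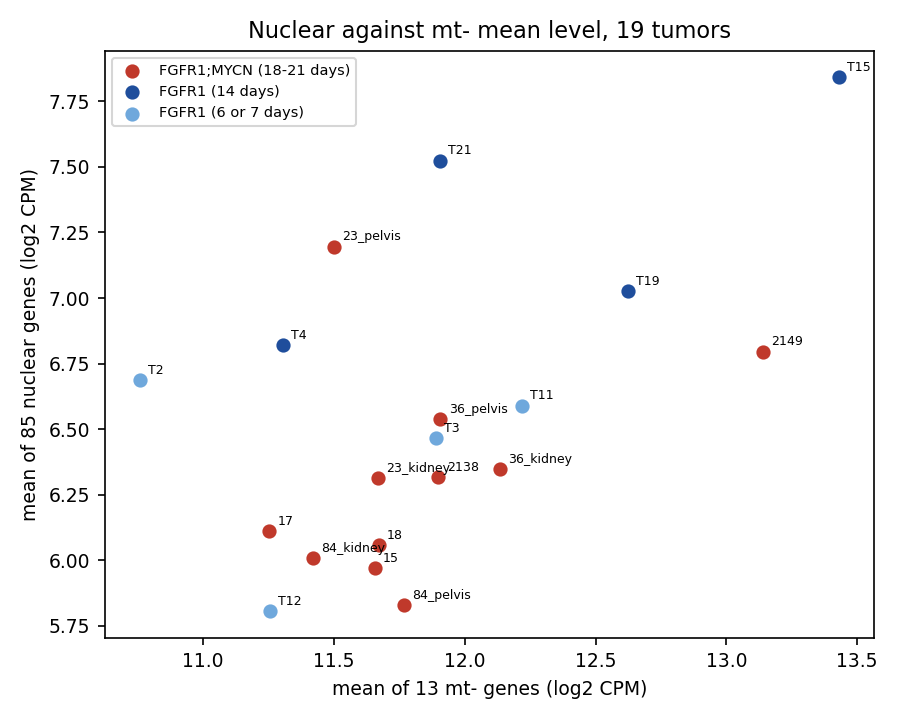
Mean log2 CPM of the 85 nuclear genes (y axis) against the mean log2 CPM of the 13 mt- genes (x axis), 1 point per tumor, marked by genotype and age. The tumors spread widely around the relation (r = 0.52), with mouse2149 and T15 at the right edge.

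The first comparison concerned how the chain differed between FGFR1;MYCN and FGFR1 tumors. Of 85 nuclear genes tested, 17 were lower in FGFR1;MYCN tumors (adjusted p under 0.05, edgeR quasi-likelihood test, Benjamini-Hochberg over 18321 genes), 0 were higher and 68 did not pass. Over all genes tested, 24.5% were lower and 19.5% higher, so that the share of nuclear chain genes that were lower was close to that of all genes. The median log2 fold change was −0.43 over the nuclear genes, with 78 of 85 below 0, against 0.01 over all genes. Without the tissue-restricted forms it was −0.40, and −0.22 when T15 was left out too. None of the 13 mt- genes passed, whose fold changes ran from −0.44 for mt-Nd3 to 0.20 for mt-Atp8 with standard errors of 0.32 to 0.40, so that differences of this size were not detectable with these tumors. The smallest adjusted p among mt- genes was 0.309, and 0 had an unadjusted p under 0.05. mt-Nd2 was lower without the tumor of mouse2149 (−0.72), and DESeq2 called 0 mt- genes. Single tumors moved the nuclear count: without T15 or without T21 the test called 7 genes, without T12 26 and without the mouse23 pelvis tumor 36. Over all genes, 4090 of 18426 were lower and 3717 higher without T15, and 4222 of 18457 lower and 4007 higher without T21. Without T12 these were 4510 and 3644 of 18417, and without the mouse23 pelvis tumor 4651 and 4223 of 18278. Without T15, Atp5g1, a ring subunit of the ATP synthase, was higher (0.56, adjusted p = 0.0306). With a correction for transcript length and GC content 11 genes passed, of which Atp5s was higher (0.42, adjusted p = 0.0085), and 58.2% of the calls over all genes were higher, against 44.3% without it.

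By complex, 8 of 39 nuclear genes of complex I were lower (median log2 fold change −0.45), 2 of 4 of complex II (−0.56), 2 of 9 of complex III (−0.49), 5 of 16 of complex IV (−0.48) and 0 of 17 of complex V (−0.25). Of the 7 core subunits of complex I, which hold the electron path, 1 was lower, against 7 of its 32 other subunits. In complex IV, 4 of the 5 lower genes were tissue-restricted forms, and without those forms 1 of 11 was lower. Between these counts no difference was tested.

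Complex I, which oxidizes NADH, is described by its largest falls. Ndufa4l2, a paralog of Ndufa4 placed here by its symbol although Ndufa4 is now counted to complex IV (chr10:127514967-127517154, GRCm38), had a log2 CPM of 0.68, 1.50 and 2.0 (lowest, median, highest) in FGFR1;MYCN tumors, 2.92, 3.04, 3.30 and 3.87 at 14 days, and 2.60, 2.65, 2.74 and 3.45 at 6 or 7 days. The groups did not overlap, and the log2 fold change was −1.57 ± 0.20 (SE, adjusted p = 3.18e-06, edgeR). Ndufa3, an accessory subunit, had 4.86, 5.27 and 6.29 in FGFR1;MYCN tumors, 6.16, 6.32, 7.25 and 7.41 in T4, T19, T21 and T15, and 5.13, 5.76, 5.79 and 5.88 in T12, T3, T2 and T11. The tumors at 6 or 7 days lay inside the FGFR1;MYCN range while 3 of the 4 at 14 days lay above it, and the fold change over all FGFR1 tumors was −0.94 ± 0.28 (adjusted p = 0.0091).

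In complex II, which links the TCA cycle to the chain, Sdha, the flavoprotein that oxidizes succinate, had 7.37, 7.68 and 8.79 in FGFR1;MYCN tumors. It had 7.89, 8.79, 9.05 and 9.15 in T21, T4, T19 and T15, and 7.47, 7.72, 8.26 and 8.44 in T12, T11, T3 and T2. The ranges overlapped, and the fold change was −0.66 ± 0.23 (adjusted p = 0.0249). Sdhc, a membrane anchor, changed by −0.61 ± 0.24 (adjusted p = 0.0426). In complex III, which reduces cytochrome c, Uqcrb had 5.82, 6.17 and 7.59 in FGFR1;MYCN tumors and its fold change was −0.89 ± 0.32 (adjusted p = 0.0297). Uqcr10, another small subunit, changed by −0.71 ± 0.27 (adjusted p = 0.039).

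The FGFR1 tumors at each age, set against the same 11 FGFR1;MYCN tumors, gave different counts. Against 14 days, 52 of 85 nuclear genes and 1 of 13 mt- genes were lower in FGFR1;MYCN tumors and 0 were higher, where 22.3% of all genes were lower and 18.6% higher. All 85 nuclear genes had a negative fold change, with a median of −0.82, and the 13 mt- genes had a median of −0.63. Against 6 or 7 days, 4 nuclear genes were lower (Cox8b, Cox7a1, Cox6a2 and Ndufa4l2) and 0 were higher, where 16.8% of all genes were lower and 13.4% higher. The nuclear median was then 0.18, with 67 of 85 above 0, and the mt- median 0.36, with 13 of 13 above 0. As both comparisons use the same FGFR1;MYCN tumors, their values are given side by side only.

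Against 14 days, 25 of 39 nuclear genes of complex I were lower, 3 of 4 of complex II, 6 of 9 of complex III, 14 of 16 of complex IV and 4 of 17 of complex V. Uqcrb stood at −1.40 ± 0.33 against 14 days (adjusted p = 0.00293) and at −0.03 ± 0.31 against 6 or 7 days, and Ndufa3 at −1.43 ± 0.27 (adjusted p = 0.00068) and −0.14 ± 0.25. The mt- gene lower against 14 days was mt-Co3, at −0.84 ± 0.32 (adjusted p = 0.0494). Its counts depend on how reads were divided with a near-identical copy, which held 0% to 40.5% of the counts of that pair. Its level was 12.94, 13.06 and 14.08 in FGFR1;MYCN tumors and 13.10, 13.92, 14.28 and 14.93 in T4, T19, T21 and T15, so that the groups overlapped.

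**Figure D3:**
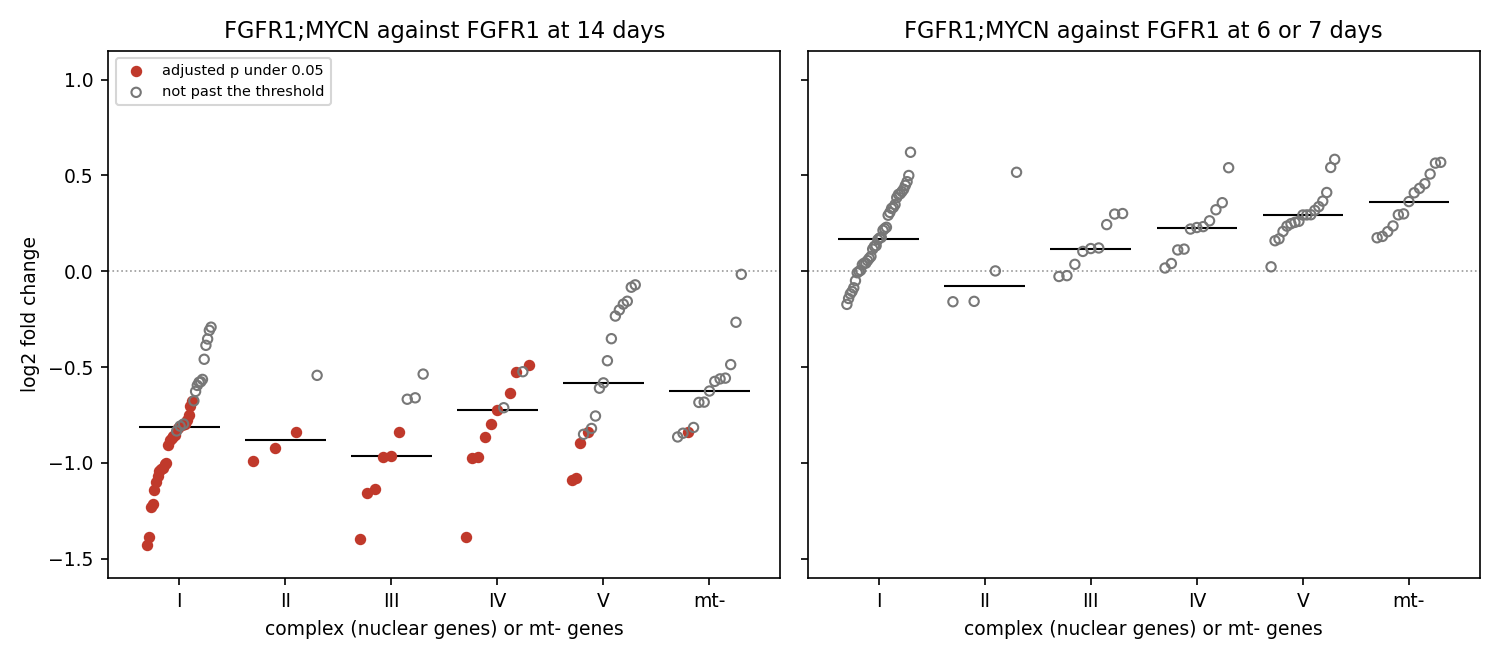
log2 fold change of each gene (y axis) in FGFR1;MYCN tumors against FGFR1 tumors at 14 days (left) and at 6 or 7 days (right), for the 79 nuclear genes tested that are not tissue-restricted forms, by complex, and the 13 mt- genes (x axis). Filled points passed the test and bars are medians. Against 14 days all points lie below 0 and 46 nuclear genes and 1 mt- gene passed, and against 6 or 7 days none did.

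The second comparison set the FGFR1 tumors at 14 days against those at 6 or 7 days. All 85 nuclear and 13 mt- genes had a higher mean at 14 days, with a median log2 fold change of 1.00 (0.40 to 4.11) and 1.12 (0.54 to 1.27), against 0.05 over all genes. With edgeR, 0 of the 98 genes passed, as 0% of all 18623 genes did. In counts simulated with known changes, this fit recovered 0 of 100 changes of 2-fold and 48 of 100 of 4-fold. In that simulation, where only 100 genes of any level changed by each size, differences of the median size seen here were hardly detectable. An unadjusted p under 0.05 was reached by 75 of the 85 nuclear genes, all of them higher at 14 days, and by 0 of the 13 mt- genes, where 9.64% of all genes reached it in that direction. DESeq2 called 43 nuclear genes higher, 0 lower and no mt- gene, where it called 4.03% of all genes higher, so the calls differed between tools.

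The values at the 2 ages did not overlap for 40 of the 85 nuclear genes and for 0 of the 13 mt- genes, where 4.23% of all genes were higher at 14 days without overlap. Ndufs7, an iron-sulfur subunit of the electron path in complex I, was named after its values were seen, for its small p. It had 6.42, 6.45, 6.50 and 6.96 in T4, T19, T21 and T15, and 5.08, 5.64, 5.81 and 5.87 in T12, T11, T3 and T2, a fold change of 1.06 ± 0.22 (adjusted p = 0.0926). The median difference of the mt- genes, 1.12, was 0.56 without T15, and their values spread more widely. mt-Co1 had 13.77, 14.31, 15.20 and 16.01 in T4, T21, T19 and T15 and 13.16, 13.63, 14.42 and 14.44 in T2, T12, T3 and T11, so that the ages overlapped (1.14 ± 0.76, adjusted p = 0.485). In complex V the ages overlapped for all 17 genes, whereas they did not for 22 of 39 nuclear genes of complex I and 10 of 16 of complex IV.

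Markers of other tissues differed among these tumors too, and mostly not by age alone. Brown fat markers summed to 1664 to 3393 CPM at 14 days and 324 to 1826 CPM at 6 or 7 days. Adrenal cortex markers reached 12156 CPM in T4 and 7367 CPM in T19 but 12.3 CPM in T15, against 94.6 to 1593 CPM at 6 or 7 days, and skeletal muscle markers 14069 CPM in T15. Th had a log2 CPM of 7.36 (T15) to 8.60 (T4) at 14 days and 7.95 to 8.28 at 6 or 7 days. All 10 neuroblast markers summed to 938 CPM in T15, 1129 in T19, 1602 in T21 and 2759 in T4. At 6 or 7 days they summed to 1815 to 2402 CPM. The part of these tissues in the higher chain levels at 14 days was not tested. Leaving T15 out does not test it, as T4 and T19 held adrenal cortex markers and T4, T19 and T21 brown fat markers. Without T15, 60 chain genes had an unadjusted p under 0.05, and how many of all genes did is not given. The nuclear median was then 0.82 over the genes that are not tissue-restricted forms.

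The tissue-restricted forms of complex IV gave the largest differences of all the genes followed. The promoters of the pairs that carry this difference, and of Cox6a1, the widespread partner of Cox6a2, are shown for comparison, each as the 250 bases before the RefSeq start (GRCm38.p6, read on the strand of the gene). They are for Cox7a1 chr7:30183921-30184170 (+), Cox8b chr7:140900447-140900696 (−), Cox7a2 chr9:79759854-79760103 (−), Cox8a chr19:7217617-7217866 (−) and Cox6a1 chr5:115348959-115349208 (−). Capitals mark matches to the motifs searched.
Cox7a1: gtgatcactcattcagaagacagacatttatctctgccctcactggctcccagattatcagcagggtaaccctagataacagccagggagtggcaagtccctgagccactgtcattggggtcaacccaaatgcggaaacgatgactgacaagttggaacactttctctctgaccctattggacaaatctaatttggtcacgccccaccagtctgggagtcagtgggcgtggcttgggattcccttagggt
Cox8b: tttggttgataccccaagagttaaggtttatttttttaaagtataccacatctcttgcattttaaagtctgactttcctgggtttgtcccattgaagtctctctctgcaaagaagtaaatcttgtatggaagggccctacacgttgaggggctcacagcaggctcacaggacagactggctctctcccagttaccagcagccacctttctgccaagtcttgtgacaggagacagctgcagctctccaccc
Cox7a2: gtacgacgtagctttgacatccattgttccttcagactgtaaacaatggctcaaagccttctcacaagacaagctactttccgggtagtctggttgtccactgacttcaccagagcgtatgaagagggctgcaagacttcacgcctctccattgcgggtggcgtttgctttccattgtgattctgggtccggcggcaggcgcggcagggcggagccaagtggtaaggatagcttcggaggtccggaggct
Cox8a: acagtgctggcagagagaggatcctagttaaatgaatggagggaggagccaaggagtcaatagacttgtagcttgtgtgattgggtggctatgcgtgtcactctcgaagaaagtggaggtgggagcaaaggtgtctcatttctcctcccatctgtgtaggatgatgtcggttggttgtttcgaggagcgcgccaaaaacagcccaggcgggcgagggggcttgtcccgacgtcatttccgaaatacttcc
Cox6a1: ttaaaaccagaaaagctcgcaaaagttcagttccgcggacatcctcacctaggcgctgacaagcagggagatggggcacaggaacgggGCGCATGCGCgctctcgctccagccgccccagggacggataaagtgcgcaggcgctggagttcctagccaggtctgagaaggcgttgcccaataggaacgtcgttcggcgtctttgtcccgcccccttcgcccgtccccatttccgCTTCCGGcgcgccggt

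The motifs searched on both strands were NRF1 (GCATGCGC), ETS (CCGGAAG), ERR (AAGGTCA), the E-box (CACGTG), MEF2 (TAAAAATA) and the TATA box (TATAAA). In 300-base windows that add 50 bases after the start, they were found in 3.05%, 9.93%, 5.38%, 8.09%, 3.09% and 15.7% of the promoters of 27025 genes. Cox6a1 held overlapping NRF1 matches 160 and 162 bases before its start and an ETS match 16 bases before it. The other 4 stretches printed held no match. The 300-base window of Cox8b held TATA box letters that lie wholly after the start, and that of Cox8a an ETS match that ends past the start. A match is a description of the letters, and promoters were matched for 67 of the 90 nuclear genes, so no share over the members is given.

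Cox8b, the heart and skeletal muscle form of subunit 8 that brown fat also expresses (chr7:140898945-140900446), had a median log2 CPM of 0.25 in FGFR1;MYCN tumors, a highest value of 1.38 and no count in mouse2149 and the mouse23 pelvis tumor. It had 6.56, 7.46, 7.47 and 8.62 in T4, T19, T21 and T15 and 3.03, 4.70, 4.81 and 5.67 in T12, T11, T2 and T3. The groups did not overlap, and the fold change was −6.66 ± 0.88 (adjusted p = 5.81e-06). Against 14 days it was −7.48 ± 0.86 and against 6 or 7 days −4.52 ± 0.88 (adjusted p = 0.00113).

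Cox7a1, the corresponding form of subunit 7a (chr7:30184144-30186078), had −0.59, 0.57 and 1.92 in FGFR1;MYCN tumors, 6.0, 6.82, 6.85 and 7.98 at 14 days and 2.59, 4.02, 4.2 and 5.14 at 6 or 7 days. It fell by 5.55 ± 0.59 on the log2 scale (adjusted p = 5.67e-07) with no overlap. Cox6a2, the muscle form of subunit 6a (chr7:128205435-128206387), had a fold change of similar size, but its groups overlapped. Its mean log2 CPM was −1.43 in FGFR1;MYCN tumors and 1.48 in FGFR1 tumors, and 1 tumor held 17650 of its 20578 counts. It had −3.34, −1.49 and 0.42 in FGFR1;MYCN tumors, −1.32, −0.63, 4.44 and 8.26 in T4, T21, T19 and T15, and −2.09, −1.91, 0.90 and 4.2 in T12, T3, T11 and T2. Its fold change of −6.53 ± 1.30 (adjusted p = 0.000414) was −3.66 without T15 and −0.43 without T15, T19 and T2.

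Cox6b2, the testis form of subunit 6b, had 0.17, 1.61 and 2.02 in FGFR1;MYCN tumors, 2.66 to 3.34 at 14 days and 2.16 to 2.59 at 6 or 7 days, and changed by −1.10 ± 0.22 (adjusted p = 0.000375) with no overlap. Cox4i2, the lung form of subunit 4, did not pass at −0.62 ± 0.29 (adjusted p = 0.0873). Non-overlap with lower values in FGFR1;MYCN tumors was thus seen for Cox8b, Cox7a1, Ndufa4l2 and Cox6b2, that is for 4 of 98 genes, where 7.06% of all genes showed it. Cox7b2, Cox8c, Cox6c2, Ndufa11b and Ndufs6b had too few counts to be tested, with 60, 4, 10, 10 and 4 counts over all tumors. Exon bases of Cox6a2 and Ndufa4l2 are shared with Itgad and Shmt2 on the opposite strand, so reads there cannot be assigned with certainty.

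The partners found in most tissues did not pass. None of Cox4i1, Cox6a1, Cox6b1, Cox7a2, Cox7b, Cox8a and Ndufa4 passed between genotypes, with fold changes of −0.51 to −0.20. Cox8a had 7.21, 7.53 and 8.04 in FGFR1;MYCN tumors, 7.87, 7.97, 8.41 and 8.12 in T4, T19, T21 and T15, and 6.96, 7.63, 7.57 and 7.59 in T12, T11, T2 and T3. Its fold change was −0.20 ± 0.16 (adjusted p = 0.343). Against 14 days 6 of the 7 partners were lower, with a median of −0.80, and against 6 or 7 days 0 were, with a median of 0.23. The restricted forms made up 0.05% to 0.13% of nuclear chain counts in FGFR1;MYCN tumors, 1.31% to 3.60% at 14 days and 0.37% to 0.89% at 6 or 7 days.

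**Figure D4:**
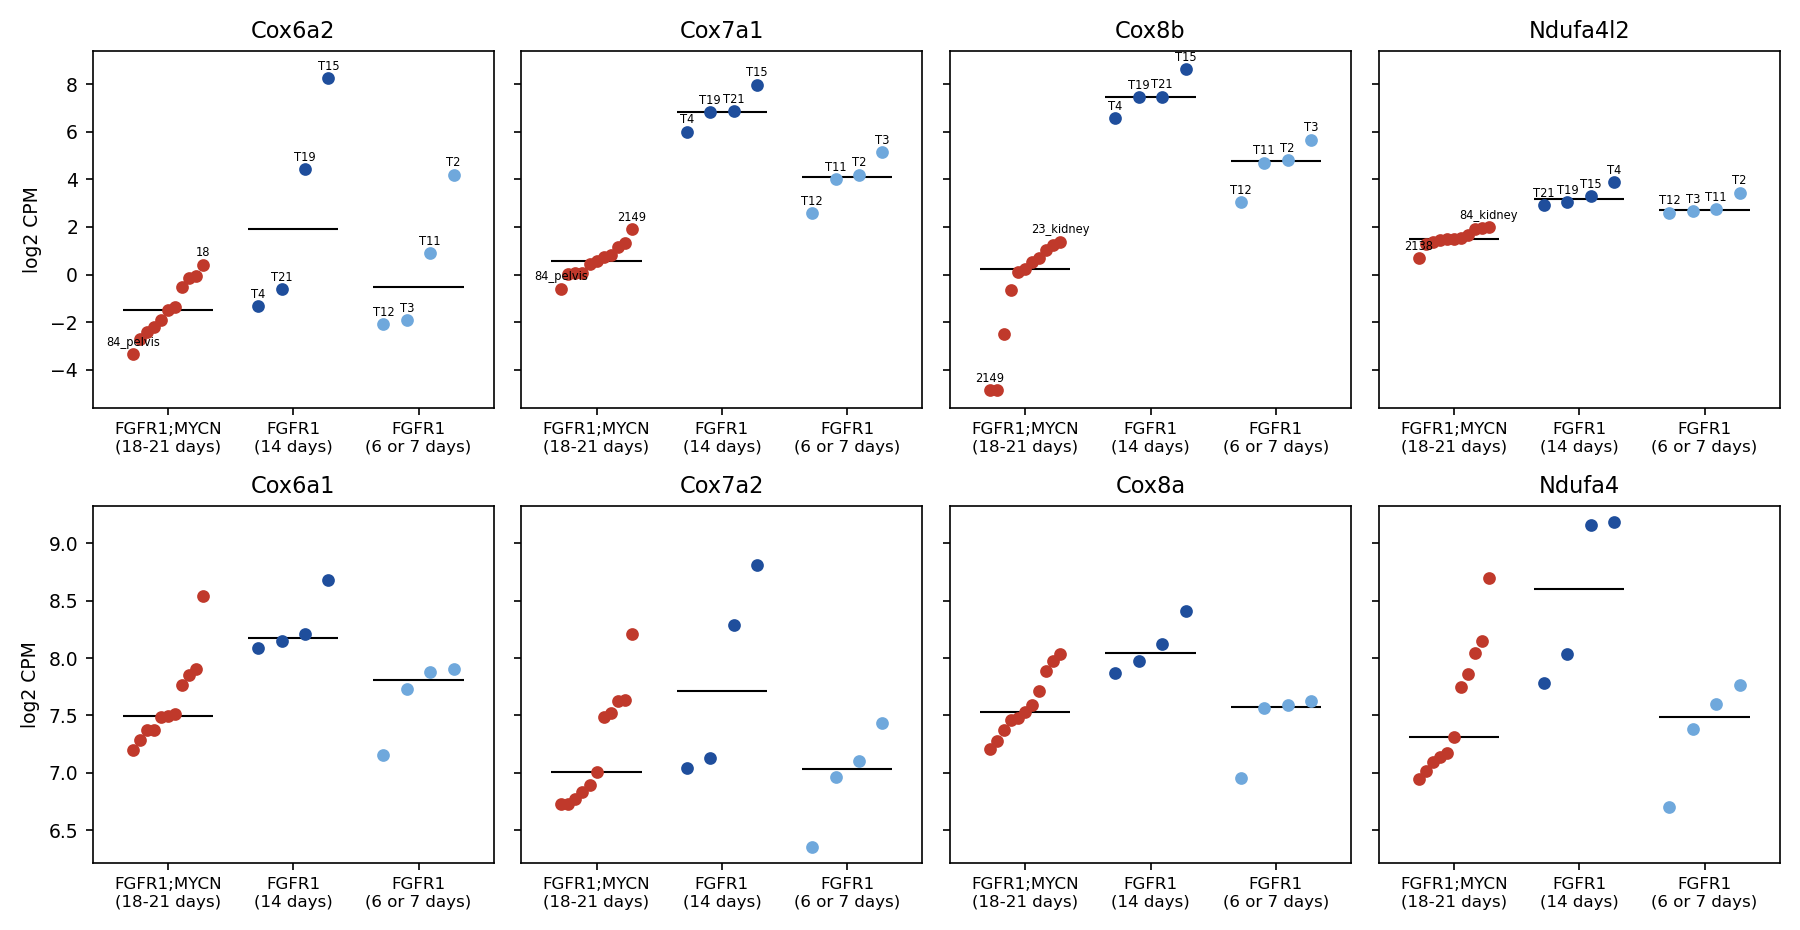
log2 CPM (y axis) of tissue-restricted forms and their widespread partners in each tumor, by genotype and age (x axis). The highest FGFR1;MYCN tumor had 1.38 for Cox8b and 1.92 for Cox7a1, under the lowest FGFR1 tumor at 3.03 and 2.59.

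Markers of brown fat and skeletal muscle differed between the groups as well. Ucp1, the uncoupling protein that defines brown fat, had 5.54 to 9.82 in FGFR1 tumors and −3.05 to 2.81 in FGFR1;MYCN tumors (−7.15 ± 0.80, adjusted p = 9.61e-07), and 8 of 10 brown fat and 9 of 10 skeletal muscle markers were lower in FGFR1;MYCN tumors, where 24.5% of all genes were. Markers of some other tissues were lower too, with 6 of 6 for fibroblasts, 5 of 5 for endothelium, 6 of 6 for Schwann cells, 6 of 6 for leukocytes and 5 of 5 for red blood cells. Not all lists went this way. Summed medians in FGFR1;MYCN and FGFR1 tumors were 2508 and 1903 CPM for neuroblasts, 7.29 and 3.60 for kidney tubule and 16.3 and 10.5 for exocrine pancreas. They were 5.41 and 14.4 CPM for heart muscle, 17.2 and 693 for adrenal cortex and 13.5 and 10554 for liver. The summed brown fat markers ranged from 24.4 to 134 CPM in FGFR1;MYCN tumors, 1664 to 3393 CPM at 14 days and 324 to 1826 CPM at 6 or 7 days. Skeletal muscle markers ranged from 4.27 to 164 CPM in FGFR1;MYCN tumors, and in FGFR1 tumors were 14069 CPM in T15, 1379 in T19, 1361 in T2 and 211 in T11. The part of these tissues in the fold changes was not tested.

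Over the 8 FGFR1 tumors, Cox8b rose with the log2 of the summed brown fat markers (CPM plus 1) (r = 0.91, exact permutation p = 0.00119, adjusted over 6 relations 0.00253, rho = 0.88, exact p = 0.00724, adjusted 0.0145), and r was 0.86 without T12 and T2. Cox7a1 gave r = 0.91 (exact p = 0.00126, adjusted 0.00253, rho = 0.88, exact p = 0.00724, adjusted 0.0145) and 0.87 without the same tumors. Cox6a2 gave r = 0.99 with the skeletal muscle markers (exact p = 4.96e-05, adjusted 0.000298, rho = 0.98, exact p = 0.000397, adjusted 0.00238) and 0.98 without T15 and T19. The 3 other pairings had r of 0.31 to 0.46 (adjusted exact p of 0.325 to 0.456) and rho of 0.50 to 0.57 (adjusted exact p = 0.216) and did not pass. All these tests were two-sided. The permutations exchanged tumors across ages, and Cox8b and Cox7a1 did not overlap between the ages. Their relations with the brown fat markers therefore cannot be told apart from age. Each age alone has 4 tumors, too few for a correlation within it, and all points share their library totals.

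**Figure D5:**
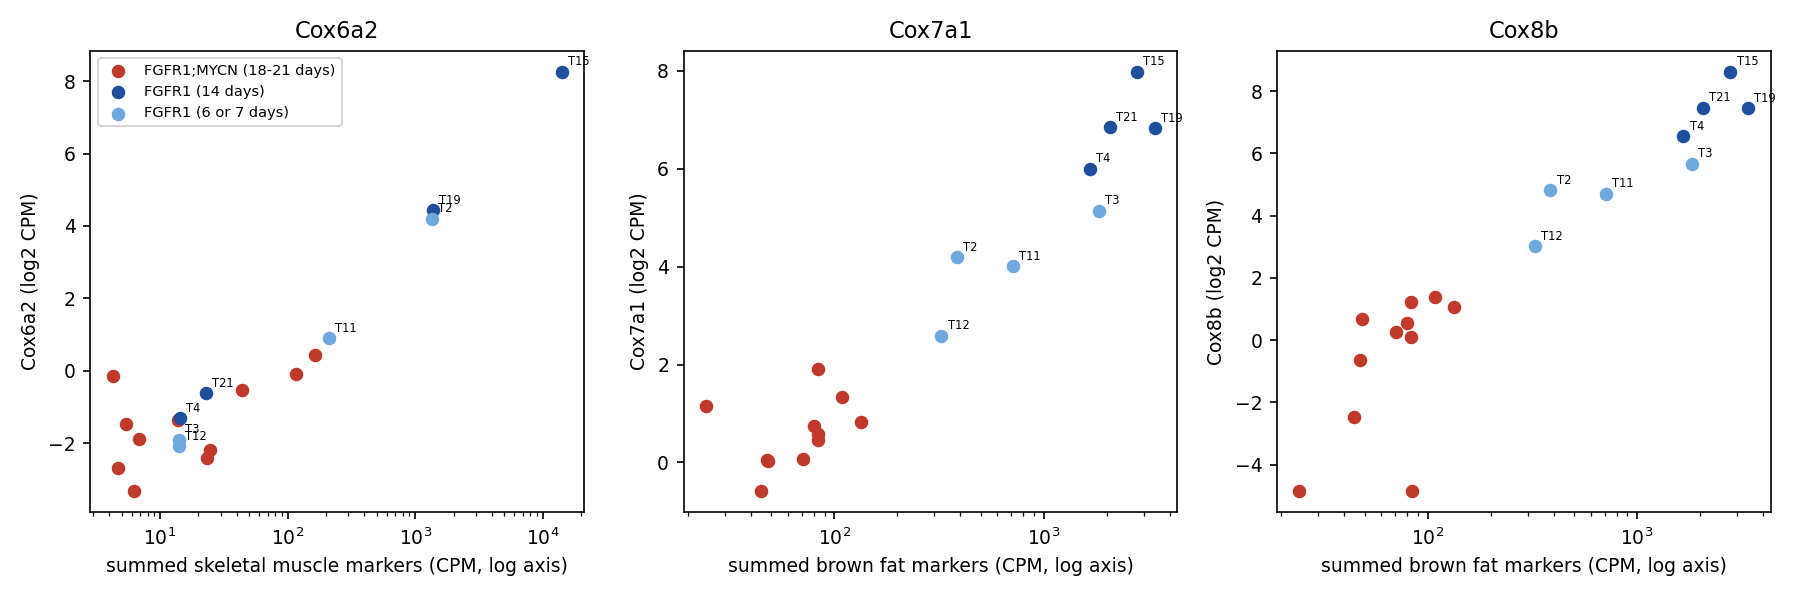
log2 CPM of Cox8b, Cox7a1 and Cox6a2 (y axes) against the summed CPM of brown fat or skeletal muscle markers (x axes, log scale), 1 point per tumor, by genotype and age. Over the FGFR1 tumors r was 0.91, 0.91 and 0.99.

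The third comparison set pelvis against kidney tumors, as labelled, of the same 3 FGFR1;MYCN mice. Kidney tubule markers summed to 4.74 to 7.29 CPM in the kidney tumors and 11.5 to 32.7 CPM in the pelvis tumors, and adrenal cortex markers to 17.2 to 1684 CPM and 13 to 22.6 CPM. None of the 98 genes passed with edgeR or DESeq2, and with edgeR 0% of all 17901 genes did. In simulated counts the edgeR fit recovered 1 of 100 changes of 2-fold and 44 of 100 of 4-fold. An unadjusted p under 0.05 was reached by 1 gene, Cox6a2 (−2.28 ± 0.66, lower in the pelvis), where 5.3% of all genes reached it. All 79 nuclear genes that are not tissue-restricted forms had a higher mean in the pelvis, with a median of 0.48, and the mt- genes had a median of −0.07. The nuclear median was 0.03 without the mouse23 pelvis tumor, and 0.76 without the mouse84 pelvis tumor, when 40 genes reached an unadjusted p under 0.05. How many of all genes reached it in that setting is not given. The nuclear mean was higher in the pelvis than in the kidney tumor in mouse23 (7.20 against 6.31) and mouse36 (6.54 against 6.35), and lower in mouse84 (5.83 against 6.01).

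Other genes of energy metabolism were followed as lists, with the calls of the test across all genes, of which 24.5% were lower and 19.5% higher in FGFR1;MYCN tumors. Of 14 genes of the TCA cycle, 8 were lower and 0 higher in FGFR1;MYCN tumors (median −0.56), with Sucla2, a subunit of succinyl-CoA ligase, at −1.26 ± 0.28 (adjusted p = 0.00126). Against 14 days 10 of them were lower, where 22.3% of all genes were, and against 6 or 7 days 1, where 16.8% were. Of 14 genes that feed electrons into the chain, 7 were lower and 1 higher, from Coq8a, needed to make ubiquinone, at −3.18 ± 0.65 (adjusted p = 0.000527) to Coq3, a methyltransferase of the same pathway, at 0.67 ± 0.21 (adjusted p = 0.0153). Of 17 glycolytic genes, 8 were higher and 2 lower, with Pfkp, a phosphofructokinase, at 1.16 ± 0.18 (adjusted p = 3.66e-05) and Ldhb, a lactate dehydrogenase subunit, at −1.27 ± 0.24 (adjusted p = 0.000278). Against 14 days 5 glycolytic genes were higher and 3 lower, where 18.6% of all genes were higher and 22.3% lower. Against 6 or 7 days 10 were higher and 0 lower, where 13.4% of all genes were higher and 16.8% lower.

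The machinery that expresses mitochondrial DNA gave calls in both directions, to be read against the same 24.5% lower and 19.5% higher over all genes. Of 18 genes that process or stabilize mitochondrial RNA, 7 were higher and 0 lower, with Elac2, which cuts tRNA ends out of the transcripts, at 0.68 ± 0.12 (adjusted p = 0.000138). Of 15 genes for copying and transcribing mitochondrial DNA, 4 were lower and 0 higher, with Top1mt, its topoisomerase, at −0.80 ± 0.24 (adjusted p = 0.00921). Of 78 mitochondrial ribosome genes, 8 were lower and 4 higher, from Mrpl14 at −0.75 to Mrpl19 at 0.62 (adjusted p = 0.0252 and 0.00455). Assembly factors split as well. Of 15 factors of complex I, 2 were lower (Ndufaf8 at −0.89, adjusted p = 0.0115) and 2 higher (Ndufaf4 at 0.73, adjusted p = 0.00306), and of 32 factors of complexes II to V, 4 were lower (Cox17, a copper carrier, at −0.93, adjusted p = 0.0154) and 4 higher (Sco2, which delivers copper to mt-Co2, at 1.25, adjusted p = 0.00337).

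Of 10 regulators of these genes, 3 were higher and 3 lower. Mouse Mycn had 6.33 to 7.13 in FGFR1;MYCN tumors and 4.05 to 6.19 in FGFR1 tumors, with no overlap (1.33 ± 0.24, adjusted p = 0.000178), whereas Myc was lower (−1.74 ± 0.24, adjusted p = 7.6e-06). The human transgenes were not analysed here, and whether some of their reads were counted to mouse Mycn or Fgfr1 was not tested. Mouse Fgfr1 changed by −0.34 ± 0.13 (adjusted p = 0.0393).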

How the data were processed

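RNA was extracted with TRIzol from fresh-frozen tumors and sequenced as stranded paired-end libraries. The authors quantified reads with kallisto 0.44.0 on mouse and human transcripts together, summed them to genes with tximport and deposited expected counts (whole numbers, 35825 mouse genes) and variance-stabilized log2 values from DESeq2 1.32.0. All columns were mapped to samples by title. Levels were computed as log2 CPM with TMM factors and a prior count of 2. Every comparison of the expected counts used edgeR 4.0.16 (glmQLFTest, R 4.3.3) after keeping genes that reached 10 counts in 8 or more tumors for genotype, 4 or more for age and 3 or more for location, with Benjamini-Hochberg adjustment over all genes tested and a threshold of 0.05. Alternatives used limma 3.58.1 and DESeq2 1.42.0. The fits were checked on simulated counts, in which they recovered 40 (genotype), 0 (age) and 1 (location) of 100 changes of 2-fold. Only 100 genes of any level were changed by each fold size, whereas 4483 genes were called lower and 3567 higher between genotypes. The adjustment is stricter when few genes change, so these rates describe the simulation and not the detection of chain genes. Near-identical copies were found with BLAST 2.17.0 (at least 95% identity over at least 50% of a transcript), and positions and lengths came from GENCODE vM21. Depth limits precision through counting error only slightly: the 3.12% mt- share of T2 has an exact 95% binomial interval of 3.117% to 3.125%, which covers counting error only.

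Groups came from the genotype labels, the ages of FGFR1 tumors from the titles and those of FGFR1;MYCN mice from the study's supplementary table. The mouse number ties kidney and pelvis tumors of the same animals, whose deviations correlated at 0.27, 0.22 and 0.34. Members and lists were chosen with earlier results of these data known, so no p is given for a score over the members, and the relations with summed marker lists are not independent evidence. Genes were named by rule: all mt- genes, up to 2 of the largest changes in each direction for each complex, the restricted forms with their partners, the 3 closest and 3 least close to the mean mt- level, the largest rise and fall past the threshold in each other list, and Ucp1, Mycn and Fgfr1. Coa1 and Prorp of the lists were not in the table. One result that needs a gene withheld here is not reported.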

Additional observations from a re-analysis of the deposited data

Results flagged for a closer look

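Among 129 group values of named genes tested, 5 held a tumor far from the others of its group of 4, and chance flags about 1 in 20. At 6 or 7 days T12 was low in log2 CPM for Ndufa3 (5.128, nearest 5.761 in T3), Ndufb3 (5.019, nearest 5.65 in T2) and Cox8a (6.957, nearest 7.565 in T2), and T2 was high for Ndufa4l2 (3.446, nearest 2.736 in T11). At 14 days T15 was high for Ndufs7 (6.957, nearest 6.502 in T21).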

How the results depend on the processing

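The 17 genes called between genotypes became 11 with limma on the deposited values, 11 with a length and GC correction (with which 58.2% of all calls were higher against 44.3%, and the median of all genes moved to 0.16), 53 against 14 days, 4 against 6 or 7 days and 4 without T15, T19 and T2 (a set of tumors chosen after seeing the data). Over all genes, limma called 4643 of 18939 lower and 4233 higher, and the length and GC correction 4007 of 18321 lower and 5576 higher. Against 14 days these were 4203 and 3498 of 18839, and against 6 or 7 days 3183 and 2535 of 18972. Without T15, T19 and T2 they were 3486 and 2864 of 18735. Leaving out 1 tumor gave 7 (T15 or T21) to 36 (mouse23 pelvis), and 26 without T12. In all, 24 of 33 alternatives gave a count within 1.5 times. Cox7a1 and Ndufa4l2 kept their call in 33 of 33 alternatives, whereas Sdhc lost it in 21, and Uqcr10 and Cox6c in 19 each. Against 6 or 7 days Cox6c was at 0.12, Ndufs7 at 0.0045, the nuclear median without restricted forms at 0.22 and the mt- median at 0.36. The mt- median was 0.14 without T15, T19 and T2 and ranged from −0.40 to 0.085 (without T15) when 1 tumor was left out. For FGFR1;MYCN minus FGFR1 tumors, the mean mt- level was −0.10 and 0.29 against 6 or 7 days, the mt- share −1.63 and 1.25 percentage points, and the nuclear share −0.32 and 0.083 percentage points.

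The 0 calls for age became 43 with DESeq2 and stayed at 0 in the other 10 alternatives. Between locations, the mouse as a replicate block gave 0 calls and a nuclear median of 0.36, and changed no call. The mt- median there was 0.13 without the mouse36 kidney tumor, 0.073 without the mouse23 pelvis tumor and −0.18 without the mouse84 kidney tumor. The r of 0.52 between genomes was 0.37 and 0.65 within FGFR1;MYCN and FGFR1 tumors and 0.24 without T15 and mouse2149. Except where fewer tumors enter, the cause was not tested.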
